A study of Mus musculus with 8 samples.

Results

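DNA replication genes were compared between TNFR2+ and TNFR2- Tregs in RNA sequencing libraries. The group holds 46 genes whose proteins license replication origins, activate the replicative helicase, synthesize DNA or protect the fork. They were listed by function, with earlier results of these data known. All 46 were present among the 20172 genes of the table, and all 46 were among the 13990 genes tested, which had a mean of at least 10 normalized counts over the 8 libraries. They were read as 10 groups by role, and every value comes from the same 8 libraries.

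The libraries were made from total RNA of Foxp3 YFP-cre mouse spleen cells, 4 from TNFR2+ Tregs and 4 from TNFR2- Tregs. Adult mice of both sexes were used. All 8 libraries share the genotype, in which Cre recombinase and a yellow fluorescent reporter are expressed under the *Foxp3* gene, and the cells were sorted as YFP+ among enriched CD4+ T cells and split by surface TNFR2, with no stimulation stated for the sequenced cells. Tregs are CD4+ T cells that restrain other immune cells, and TNFR2, encoded by *Tnfrsf1b*, is a receptor for the cytokine TNF. The labels do not say whether libraries of a group came from separate mice, although the study gives its n beside the mice of this comparison. If they did not, the p values measure the spread between these libraries, which may be partly technical.

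Before a cell copies its DNA, the origin recognition complex, CDC6 and CDT1 load the MCM2-7 ring onto origins, a step called licensing. In S phase, kinases and the factors CDC45, GINS and MCM10 turn the loaded ring into an active helicase, and polymerases, the PCNA clamp, primase, ligase and single-strand binding proteins then act at the moving fork. Resting lymphocytes hold these genes at low levels, and many of them are transcribed from late G1 onward under control of E2F transcription factors.

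Most replication genes had a higher mean in TNFR2+ Tregs, by very unequal amounts. At an adjusted p under 0.05 from limma, 10 of the 46 (21.7%) rose and 0 fell, beside 4.52% of all genes tested that rose and 3.39% that fell. An unadjusted p under 0.05 was reached by 19 genes, all of them higher, and by 0 lower genes, beside 12.3% of all genes that were higher and 10.7% that were lower at this threshold. The log2 fold change (TNFR2+ over TNFR2-) was above 0 in 42 of the 46 (91.3%), beside 49.3% of all genes, and its median was 0.54, beside -0.01 over all genes. Separate groups, with all TNFR2+ libraries above, were seen in 14 genes (30.4%), beside 8.08% of all genes, and in 0 genes with all TNFR2+ libraries below, beside 7.29%. RNA was measured in bulk, so a larger share of cycling cells and more of these transcripts per cell cannot be told apart.

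Summed over the 46 genes, the share of the library ranged from 0.157% to 0.197% in TNFR2+ Tregs and from 0.0993% to 0.120% in TNFR2- Tregs, without overlap. The mean log2 value of the 46 genes was likewise 7.64 to 7.98 in TNFR2+ and 6.86 to 7.07 in TNFR2- libraries. It was highest in TNFR2+ replicate 2 and, among TNFR2+ libraries, lowest in replicate 4. Without TNFR2+ replicate 2, the number of genes that passed was 6 in place of 10, and the median log2 fold change was 0.55. Among all genes, 339 of 14010 tested rose in that fit, in place of 633 of 13990. The 4 replication genes that no longer passed were *Cdc6*, *Gmnn*, *Prim1* and *Lig1*, with adjusted p between 0.0527 and 0.0760. In the map of replication genes by library, the strongest contrasts are those of *Mcm10* and *Chaf1a*.

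**Figure D1:**
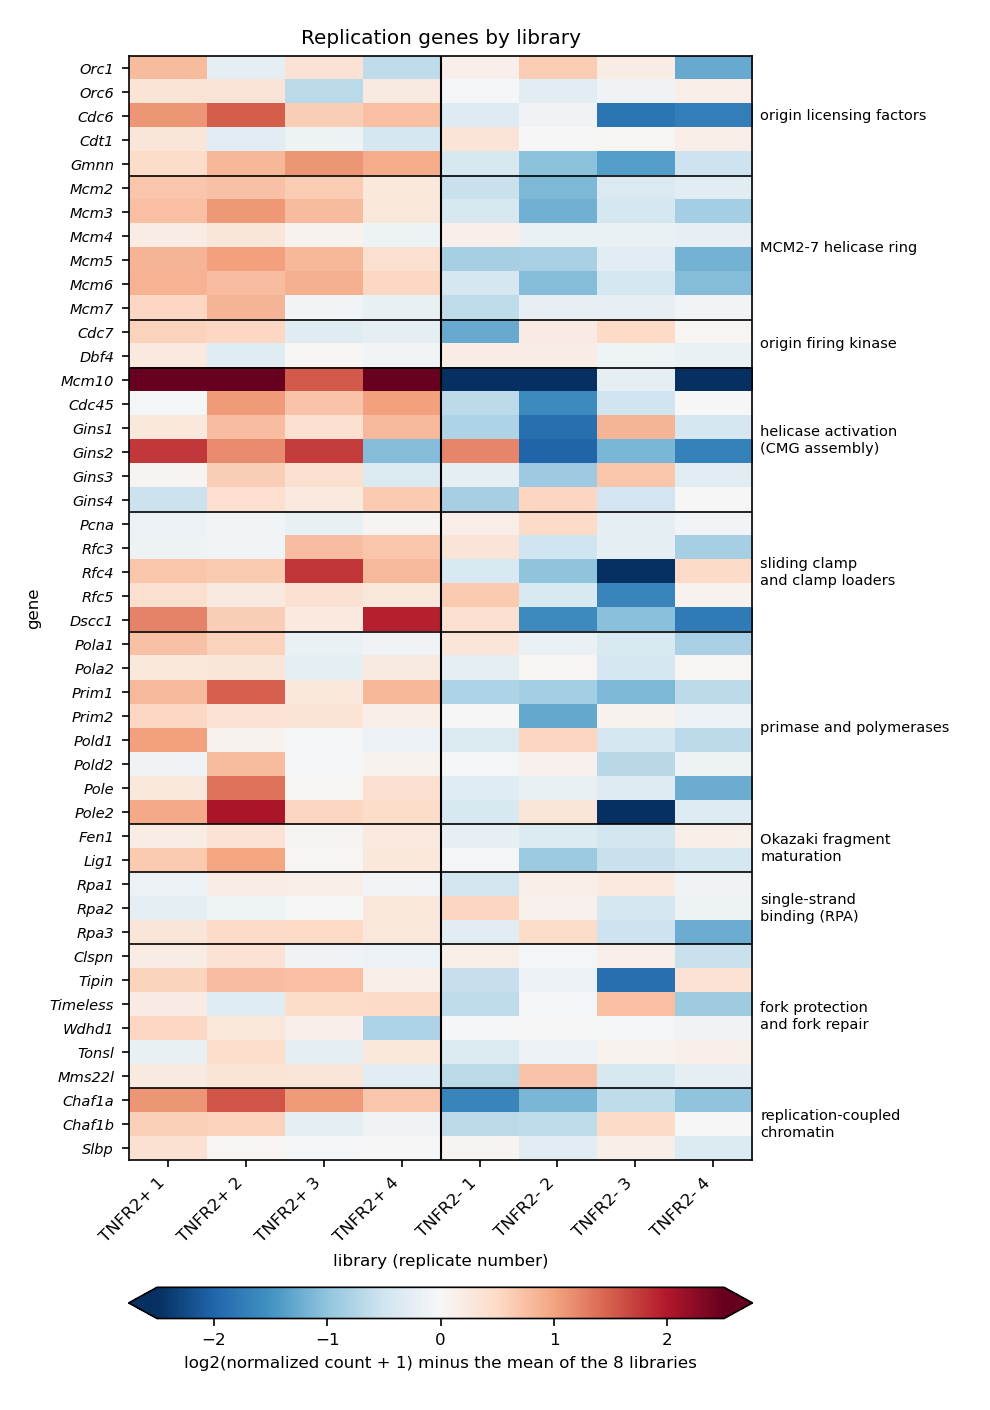
Each row is a replication gene, grouped by role, and each column a library. Color gives log2(normalized count + 1) minus the gene's mean over the 8 libraries, and values past the ends of the scale (*Mcm10* in most libraries, *Rfc4* and *Pole2* in TNFR2- replicate 3) take the end color.

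The depth of the 8 libraries was similar, at an estimated 9070000 to 12110000 reads. Sums of normalized counts did not overlap between the groups, at 9576920 to 10295226 in TNFR2+ and 10483291 to 11492762 in TNFR2- libraries. *Tnfrsf1b*, which encodes the receptor used for the sort, was higher in every TNFR2+ library (1840 to 3148 normalized counts) than in every TNFR2- library (1177 to 1563), a difference of 0.90 on the log2 scale (adjusted p = 0.00449). The Treg genes *Foxp3*, *Il2ra*, *Cd4*, *Cd3e*, *Ctla4* and *Ikzf2* were present in all libraries, and they did not move together. Of these 6 genes 3 rose, *Ikzf2* (0.95, adjusted p = 0.0145) and *Ctla4* (0.89, adjusted p = 0.00120) by the most, while *Il2ra* was at -0.34 (adjusted p = 0.0860) with every TNFR2+ library below and *Foxp3* at -0.23 (adjusted p = 0.232). Their sum, most of whose gap came from *Ikzf2* and *Ctla4*, was 25684 to 29549 in TNFR2+ and 19555 to 23702 in TNFR2- libraries. The second principal component set TNFR2- replicate 3 apart, at 91.3 against -39.1 to 17.96 in the others. Without that library 10 replication genes still passed, beside 777 of all 13876 genes tested that rose.

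Markers of other cells moved in part with the groups. The sum of the 8 B cell markers used here was 3945 to 6043 normalized counts in TNFR2+ and 1752 to 2855 in TNFR2- libraries. *Ighm* made up most of this sum and was higher in TNFR2+ (log2 fold change 1.27, adjusted p = 7.45e-04), while *Cd79a* and *Blk* were under 5 normalized counts in at least 6 of the libraries. Among 8 CD8 and NK markers, 6 were in the table, with sums of 138 to 203 and 77.6 to 141. These markers did not move together. *Nkg7* was higher in TNFR2+ (3.19, adjusted p = 0.00927), and the mean of *Klrb1c* was 12.4 against 4.88 in TNFR2-. Means of *Cd8a*, *Cd8b1*, *Klrk1* and *Eomes* were lower in TNFR2+ (6.95, 46.6, 1.54 and 25.4, against 9.57, 47.8, 9.29 and 28.5). The log2 fold changes of *Cd8b1* (0.04) and *Eomes* (0.11) were nevertheless slightly above 0 and did not pass. In TNFR2- the means of *Cd8a* and *Klrk1* rested mostly on replicate 1 (24.2 and 34.8). Myeloid markers (4 of 9 in the table) summed to 175 to 232 and 129 to 189. *Cst3* made up most of this sum (mean 197 in TNFR2+ and 146 in TNFR2-). *Itgam* was lower in every TNFR2+ library (2.92 to 8.80, against 10.6 to 21.2). Means of *Csf1r* and *S100a9* were 0 and 2.46 in TNFR2+ and 3.77 and 0 in TNFR2-. Plasma cell markers (4 of 6) summed to 944 to 1511 and 812 to 1127. *Prdm1*, which T cells also express, was higher in TNFR2+ (1.53, adjusted p = 0.0210). *Jchain* (-0.81) and *Xbp1* (-0.0049) did not pass, and *Sdc1* had means of 9.31 in TNFR2+ and 0.378 in TNFR2-. Erythroid markers (2 of 9) summed to 411 to 694 and 320.1 to 905. *Tfrc* made up nearly all of this sum (mean 529 in TNFR2+ and 625 in TNFR2-), while means of *Alas2* were 3.02 and 2.66. The platelet marker (1 of 5) had 12.2 to 221 and 31.2 to 178. The part of other cells in the replication result was not tested.

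Licensing factors split into 2 genes that rose (40%, beside 4.52% of all genes) and 3 that did not pass. *Cdc6* (chromosome 11, 98907801 to 98923940 of GRCm38), which loads the helicase onto origins, had 188, 249, 133 and 146 normalized counts in TNFR2+ replicates 1 to 4. In TNFR2- replicates 1 to 4 it had 69.3, 81.6, 23.7 and 25.5. The groups did not overlap, and within TNFR2- Tregs replicates 3 and 4 were far below replicates 1 and 2. Its log2 fold change was 1.98 (SE, the standard error, 0.44, adjusted p = 0.0138), and the adjusted p was 0.0601 without an intensity trend in the variances and 0.0573 without TNFR2+ replicate 2. An annotated near-identical copy, *Gm9430*, has no row in the table, so reads could be shared with it.

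*Gmnn* (chromosome 13, 24751845 to 24761923) encodes geminin, the inhibitor of CDT1 that blocks a repeat of licensing within the same cycle. It had 79.1, 102, 125 and 110.1 normalized counts in TNFR2+ and 43.3, 27.7, 21.5 and 39.8 in TNFR2- replicates 1 to 4. Every TNFR2+ library was above every TNFR2- library, and the log2 fold change was 1.66 (SE 0.37, adjusted p = 0.0156, and 0.0527 or 0.0569 without TNFR2+ replicate 2 or 3). *Cdt1*, the loading factor that geminin inhibits, had 310.1 ± 71.7 in TNFR2+ and 367 ± 36.9 in TNFR2- Tregs (SD, n = 4). Its log2 fold change of -0.27 was the most negative of the 46 and did not pass (95% confidence interval -0.70 to 0.17, adjusted p = 0.477). The origin recognition genes *Orc1* and *Orc6* were at 0.15 and 0.12, with overlapping groups.

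Of the 6 subunits of the MCM2-7 ring, the motor of the replicative helicase, 4 rose in TNFR2+ Tregs (66.7%, beside 4.52% of all genes). These were *Mcm2*, *Mcm3*, *Mcm5* and *Mcm6*, and in each of them the groups did not overlap (beside 8.08% of all genes with every TNFR2+ library above). *Mcm6* (chromosome 1, 128331590 to 128359664) had 2209.7, 2062, 2244 and 1731 normalized counts in TNFR2+ replicates 1 to 4 and 909.6, 576, 896 and 569 in TNFR2- replicates 1 to 4. The lowest TNFR2+ library, replicate 4, was still well above the highest TNFR2- library, and the log2 fold change was 1.51 (SE 0.18, adjusted p = 4.94e-04). *Mcm5* (chromosome 8, 75109569 to 75128439) had 672, 767, 670.4 and 495 in TNFR2+ and 211, 212, 309.9 and 164 in TNFR2- libraries. Its log2 fold change was the largest of the ring, at 1.55 (SE 0.22, adjusted p = 0.00112).

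For *Mcm3* (chromosome 1, 20802968 to 20820312) the values were 1249, 1569.7, 1284 and 899 in TNFR2+ and 561, 325, 547 and 412 in TNFR2- replicates 1 to 4. TNFR2+ replicate 2 was the highest and TNFR2- replicate 2 the lowest library, and the log2 fold change was 1.44 (SE 0.21, adjusted p = 0.00123). *Mcm2* (chromosome 6, 88883474 to 88898780) had 917, 938, 879 and 679 in TNFR2+ and 385, 257, 441 and 461 in TNFR2- libraries. Its change was the smallest of the 4, at 1.17 (SE 0.20, adjusted p = 0.00371). All 4 passed in each of the 8 fits that left out a library and in each alternative that kept all libraries.

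The remaining ring subunits did not pass, and they are shown by library as a choice made after their values were seen. *Mcm4* (chromosome 16, 15623897 to 15637400) had 1038, 1137, 968 and 834 normalized counts in TNFR2+ and 997, 812, 811 and 794 in TNFR2- replicates 1 to 4. The groups overlapped through TNFR2- replicate 1, and the log2 fold change was 0.22 (95% confidence interval -0.10 to 0.54, adjusted p = 0.417). *Mcm7* (chromosome 5, 138164583 to 138172422) had 675, 846, 448 and 409.9 in TNFR2+ and 303, 404, 408 and 445 in TNFR2- libraries. TNFR2+ replicates 1 and 2 were above all TNFR2- libraries and replicates 3 and 4 lay close to them, with a log2 fold change of 0.56 (95% confidence interval 0.05 to 1.07, adjusted p = 0.179). *Mcm7* hosts *Mir25*, *Mir93* and *Mir106b*, overlaps the ends of *Cops6* and *Ap4m1*, and has a near-identical copy, *Gm5487*, with no row in the table.

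**Figure D2:**
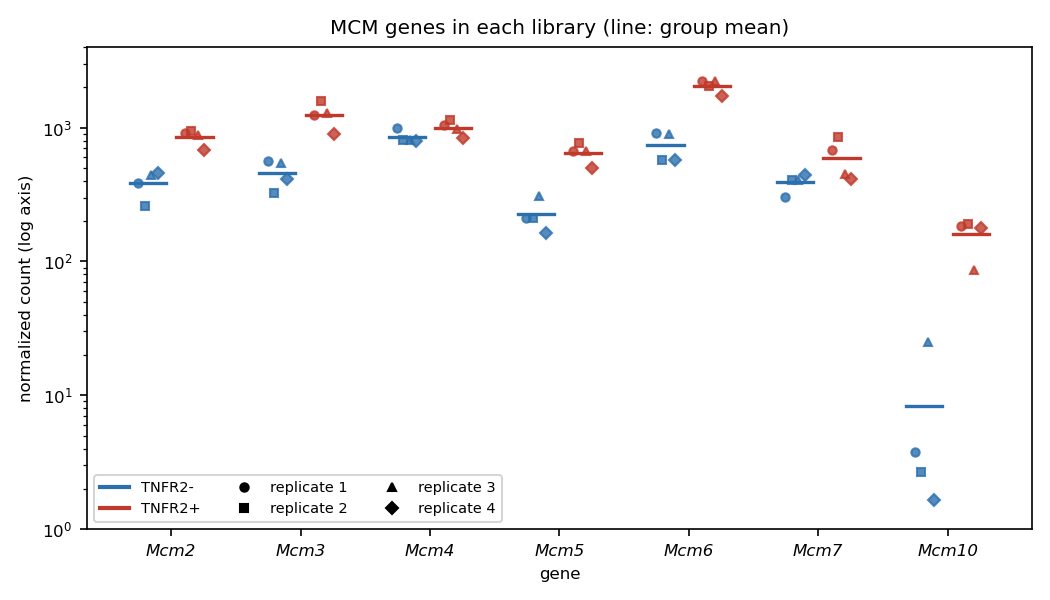
Normalized counts (log axis) of the ring genes and *Mcm10* are shown for each library, with the mean of each group as a line and the replicate number as the symbol. The groups do not overlap for *Mcm2*, *Mcm3*, *Mcm5*, *Mcm6* and *Mcm10*, and they do for *Mcm4* and *Mcm7*.

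Because the ring holds its subunits in equal number, the levels were also compared per kilobase of the principal transcript. In TNFR2- Tregs *Mcm6* (253 ± 65.6 normalized counts per kilobase, SD, n = 4) and *Mcm4* (238 ± 26.8) were the highest and *Mcm5* (66.3 ± 18.1) the lowest. In TNFR2+ Tregs *Mcm6* (709 ± 80.4) and *Mcm3* (413 ± 90.6) led, while *Mcm4* (277 ± 35.4), *Mcm2* (253 ± 35.2), *Mcm7* (201 ± 69.0) and *Mcm5* (193 ± 33.5) followed. The ratio of *Mcm4* to *Mcm6* normalized counts, on the log2 scale, was 0.24 ± 0.31 in TNFR2- and -1.05 ± 0.15 in TNFR2+ Tregs, a difference of -1.29. Such ratios were compared for all 15 pairs of ring genes after the gene values had been seen. They did not overlap between the groups in 6 pairs, each of which set *Mcm4* or *Mcm7* against a gene that rose. The calls of single genes came from the same libraries, so the ratios of these pairs add no separate support. For these pairs the exact two-sided permutation test gave p = 0.0286, which is the lowest value possible for 4 against 4 libraries, or 0.0714 adjusted over the 15 pairs, so that 0 pairs passed after adjustment.

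**Figure D3:**
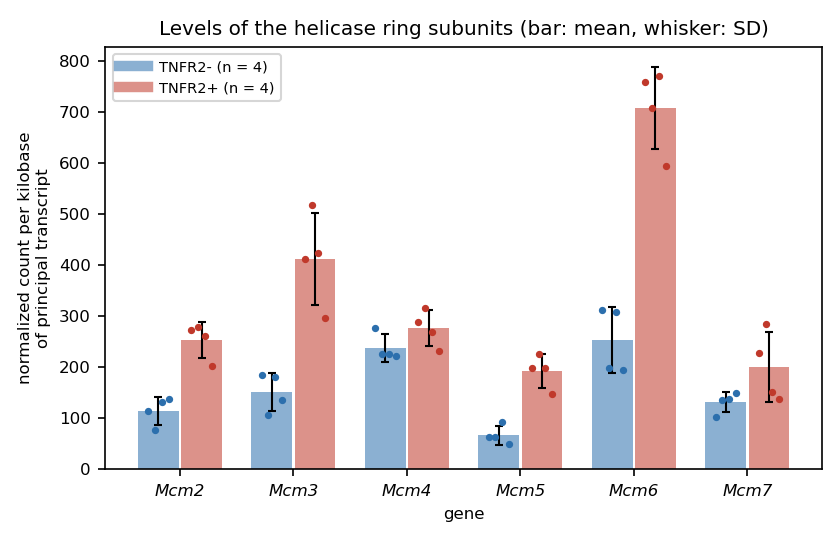
Bars give the mean normalized count per kilobase of principal transcript for the 6 ring genes in each group, whiskers the SD (n = 4) and points the libraries. *Mcm4* has nearly the height of *Mcm6* in TNFR2- Tregs (238 and 253) and lies far below it in TNFR2+ Tregs (277 and 709).

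*Mcm10* (chromosome 2, 4989714 to 5012791), whose product helps to start unwinding at the activated origin, had the largest change of the 46 genes. It had 185, 191, 86.2 and 177 normalized counts in TNFR2+ replicates 1 to 4 and 3.78, 2.67, 24.9 and 1.64 in TNFR2- replicates 1 to 4. TNFR2- replicate 3 was the highest of its group and TNFR2+ replicate 3 the lowest of its own, and the groups stayed apart. The log2 fold change was 4.71 (SE 0.69, adjusted p = 0.00120). Since 3 of the TNFR2- libraries were near 0, its size depended on the pseudocount, with 4.88 at a pseudocount of 0.5 and 3.88 at 5. It was 5.42 without TNFR2- replicate 3. It passed in every alternative run.

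The sequence before the transcription start is shown for the 5 MCM genes that rose, since they rose together. The RefSeq promoter windows, of 250 bases before to 50 after the start in GRCm38.p6, held an entry for 36 of the 46 genes, with none for *Mcm4*, and the window of *Mcm7* lies within the annotated gene. Each line gives the 180 bases up to the start, 5′ to 3′ on the strand of the gene, and capitals mark the E2F-type letters searched for on both strands, TTTCCCGC, TTTCGCGC, TTTGCCGC and TTTGGCGC.
Mcm2, chr6:88898781-88898960, minus strand: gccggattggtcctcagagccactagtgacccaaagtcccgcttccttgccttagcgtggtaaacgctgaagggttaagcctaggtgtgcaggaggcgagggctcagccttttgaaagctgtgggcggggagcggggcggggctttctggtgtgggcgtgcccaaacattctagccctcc
Mcm3, chr1:20820313-20820492, minus strand: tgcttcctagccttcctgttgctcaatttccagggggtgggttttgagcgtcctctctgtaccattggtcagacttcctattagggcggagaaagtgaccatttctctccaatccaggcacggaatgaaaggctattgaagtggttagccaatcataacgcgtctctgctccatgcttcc
Mcm5, chr8:75109329-75109508, plus strand: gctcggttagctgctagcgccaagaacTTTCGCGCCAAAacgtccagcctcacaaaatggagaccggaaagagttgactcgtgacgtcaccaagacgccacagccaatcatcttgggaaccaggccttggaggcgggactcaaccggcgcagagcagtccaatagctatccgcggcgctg
Mcm6, chr1:128359706-128359885, minus strand: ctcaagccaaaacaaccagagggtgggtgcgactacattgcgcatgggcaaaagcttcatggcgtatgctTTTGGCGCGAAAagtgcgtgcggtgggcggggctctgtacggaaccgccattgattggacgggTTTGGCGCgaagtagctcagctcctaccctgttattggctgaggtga
Mcm10, chr2:5012792-5012971, minus strand: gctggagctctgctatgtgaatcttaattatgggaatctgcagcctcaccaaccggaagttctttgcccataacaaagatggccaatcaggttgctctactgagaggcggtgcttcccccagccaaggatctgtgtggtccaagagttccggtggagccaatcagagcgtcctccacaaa

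In *Mcm5* a match on each strand, at positions -153 and -149 from the start, overlapped. *Mcm6* likewise held overlapping matches on opposite strands, at -110 and -106, and a further match at -47. In *Mcm3* the matches lay after the start, at 20 and 39, outside the bases shown, and the windows of *Mcm2* and *Mcm10* held none. The window of *Mcm7*, which did not pass, also held matches, at -165 and 17. Over all 36 genes with a window, 14 (38.9%) held such letters, beside 4.86% of 9543 tested genes with a window and 2.61% of all 27025 genes with a window. By call, they were in 5 of the 9 genes that rose (55.6%) and in 9 of the 27 that did not pass (33.3%). CCAAT, on either strand, was present in 21 of the 36 (58.3%, beside 43.2% of tested genes and 41.1% of all genes), in 7 of the genes that rose (77.8%) and 14 of those that did not pass (51.9%). The CHR-type letters TTTGAA and TTCGAA were present in 9 (25.0%, beside 16.7% of tested genes and 21.7% of all genes), with the opposite split of 1 gene that rose (11.1%) and 8 that did not pass (29.6%). These are matches of letters and were not tested as sites.

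The other factors that build the active helicase were higher in the mean but did not pass. *Cdc45*, which joins the ring with GINS, had 79.8 ± 24.7 normalized counts in TNFR2+ and 31.0 ± 13.1 in TNFR2- Tregs (SD, n = 4). Its change of 1.38 on the log2 scale had an adjusted p of 0.0843, and the groups overlapped through TNFR2+ replicate 1. The GINS genes *Gins1*, *Gins2*, *Gins3* and *Gins4* had log2 fold changes of 1.11, 1.80, 0.36 and 0.39, all with overlapping groups and adjusted p of at least 0.184. *Gins2* was spread widely within each group, from 18.5 to 141 in TNFR2+ and from 9.34 to 96.1 in TNFR2- libraries, and its change was 2.46 without TNFR2+ replicate 4 and 2.51 without TNFR2- replicate 1. It shares sequence with the overlapping gene *Gse1*.

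Neither gene of the DDK kinase, which phosphorylates the loaded ring to fire origins, passed, and 0 did at an unadjusted p under 0.05. *Cdc7*, the catalytic subunit, had 123, 118, 66.3 and 69.1 normalized counts in TNFR2+ and 34.1, 94.7, 117 and 84.9 in TNFR2- replicates 1 to 4. The groups overlapped, the log2 fold change was 0.26 (95% confidence interval -0.64 to 1.16), and it was -0.12 without TNFR2- replicate 1. Its activator *Dbf4* was at -0.05 (-0.41 to 0.30).

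**Figure D4:**
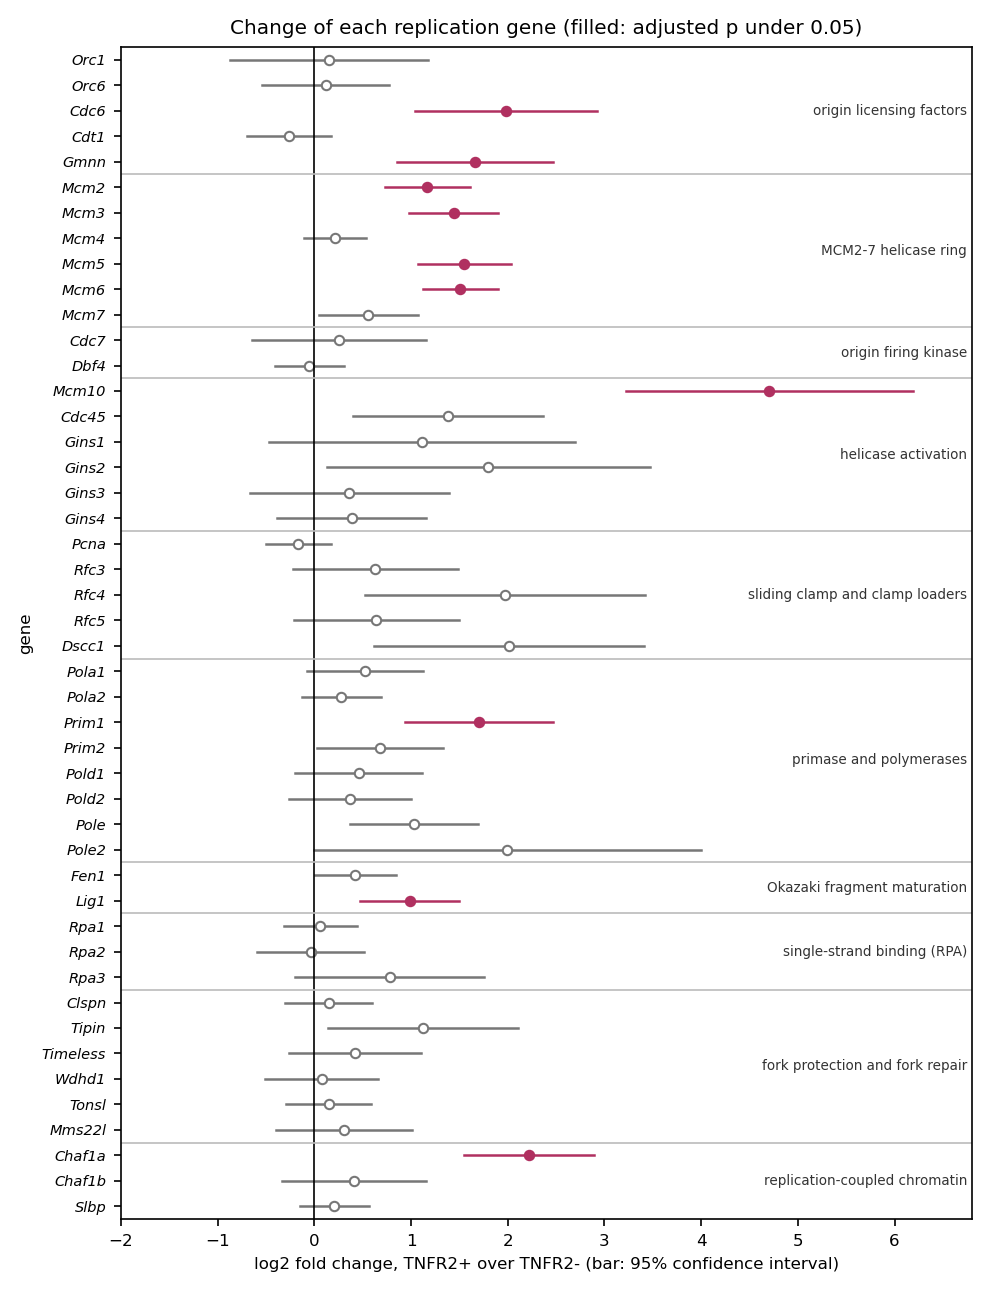
Points give the log2 fold change of each replication gene (TNFR2+ over TNFR2-) and bars its 95% confidence interval from limma, with filled points for an adjusted p under 0.05. The 10 filled points all lie to the right of 0, while *Cdt1*, *Pcna*, *Dbf4* and *Rpa2* lie to the left with intervals that span 0.

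Among the clamp and clamp loader genes, 0 of 5 passed, and 2 were higher at an unadjusted p under 0.05 (*Dscc1* and *Rfc4*, beside 12.3% of all genes). *Pcna*, which encodes the sliding clamp that tethers polymerases to DNA, had 1416 ± 109 normalized counts in TNFR2+ and 1616 ± 356 in TNFR2- Tregs (SD, n = 4). Its log2 fold change was -0.17 (95% confidence interval -0.50 to 0.17, adjusted p = 0.573). Per kilobase it was the most abundant of the 46 genes in both groups, at 933 ± 72.1 and 1064 ± 235.

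*Dscc1* (chromosome 15, 55076099 to 55090491), a subunit of an alternative clamp loader that acts in sister chromatid cohesion, had 53.6, 34.3, 26.6 and 87.8 in TNFR2+ and 29.4, 6.65, 10.2 and 5.82 in TNFR2- replicates 1 to 4. TNFR2- replicate 1 reached into the range of TNFR2+ Tregs, and the log2 fold change was 2.01 (SE 0.64, adjusted p = 0.0759, and 0.0412 without TNFR2- replicate 1). For *Rfc4*, a subunit of the main loader, the groups did not overlap, but 3.44 to 48.8 in TNFR2- libraries was a wide range, and the change of 1.97 did not pass (adjusted p = 0.0938, 0.0481 without TNFR2- replicate 4 and 0.0785 to 0.235 in the other alternatives). Without TNFR2- replicate 3, the lowest library, its log2 fold change was 1.29. *Rfc3* and *Rfc5* were at 0.63 and 0.64 with overlapping groups.

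Of the 8 primase and polymerase genes, 1 rose (12.5%, beside 4.52% of all genes). In 4 every TNFR2+ library was above every TNFR2- library (50%, beside 8.08%). *Prim1* (chromosome 10, 128015168 to 128030037), the catalytic subunit of primase, which makes the RNA primers, had 119, 189.5, 81.2 and 120.0 normalized counts in TNFR2+ and 38.9, 36.6, 30.3 and 42.0 in TNFR2- replicates 1 to 4. The TNFR2- libraries were tightly grouped and the TNFR2+ libraries were spread above them. The log2 fold change was 1.70 (SE 0.36, adjusted p = 0.0101, and 0.0529 without TNFR2+ replicate 2). *Prim2*, the large primase subunit, was at 0.68 (adjusted p = 0.196) without overlap.

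*Pole*, the catalytic subunit of the leading strand polymerase epsilon, was the gene nearest to the threshold from outside (adjusted p = 0.0571, log2 fold change 1.03). Its values were 351 to 877 in TNFR2+ and 143 to 297 in TNFR2- libraries, without overlap, and TNFR2+ replicate 2 held the highest. Nearest from inside was the ligase gene *Lig1* (adjusted p = 0.0211). The epsilon subunit *Pole2* was at 2.00 with an adjusted p of 0.218, where a TNFR2- library was listed at 0 and the change was 1.31 at a pseudocount of 5 and 1.14 without that library. The polymerase alpha genes *Pola1* and *Pola2* and the polymerase delta genes *Pold1* and *Pold2* lay between 0.28 and 0.52, all with overlapping groups.

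Of the genes that mature Okazaki fragments, *Lig1* (chromosome 7, 13277283 to 13311433), the ligase that seals them, rose. It had 777, 972, 510.3 and 591 normalized counts in TNFR2+ and 475, 258, 332 and 361 in TNFR2- replicates 1 to 4, so the groups were separate by a narrow margin. The log2 fold change was 0.99 (SE 0.24). It passed in 5 of the 8 fits that left out a library, and not without TNFR2+ replicate 1 (adjusted p = 0.0650), TNFR2+ replicate 2 (0.0760), TNFR2- replicate 2 (0.0678) or the intensity trend (0.0912). The flap endonuclease *Fen1* was at 0.42 (adjusted p = 0.212), and it contains the near-identical *Gm10143*, which had a mean of 14.4.

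The RPA genes, whose products coat single-stranded DNA, had 0 of 3 past the threshold and 0 at an unadjusted p under 0.05. *Rpa3* had 48.9, 54.8, 55.7 and 48.1 normalized counts in TNFR2+ and 32.5, 54.7, 27.3 and 16.0 in TNFR2- replicates 1 to 4. TNFR2- replicate 2 lay within the TNFR2+ range, and the log2 fold change was 0.78 (95% confidence interval -0.20 to 1.76, adjusted p = 0.337). *Rpa1* and *Rpa2* were at 0.06 and -0.04, with intervals of -0.31 to 0.44 and -0.59 to 0.51.

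In the 6 fork protection and fork repair genes, 0 passed and 1, *Tipin*, was higher at an unadjusted p under 0.05 (beside 12.3% of all genes). *Tipin* (chromosome 9, 64281581 to 64305424), a partner of TIMELESS in the complex that steadies the fork, had 100.2, 117, 115 and 75.8 in TNFR2+ and 44.9, 61.5, 17.6 and 87.2 in TNFR2- replicates 1 to 4. TNFR2- replicate 4 was above the lowest TNFR2+ library, and the log2 fold change was 1.13 (SE 0.46, adjusted p = 0.158). The partner *Timeless*, the checkpoint mediator *Clspn*, the polymerase anchor *Wdhd1* and the fork repair genes *Tonsl* and *Mms22l* lay between 0.08 and 0.42, with overlapping groups.

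*Chaf1a* (chromosome 17, 56040439 to 56072289), the large subunit of the histone chaperone CAF-1, which deposits new histones behind the fork, had the largest change after *Mcm10* among the genes that rose. It had 240.2, 331, 232 and 179.8 normalized counts in TNFR2+ and 34.6, 49.7, 70.6 and 54.5 in TNFR2- replicates 1 to 4. The lowest TNFR2+ library was far above the highest TNFR2- library. The log2 fold change was 2.22 (SE 0.31, adjusted p = 9.80e-04), and it passed in every alternative run. *Chaf1b*, the subunit that pairs with it, was at 0.41 (95% confidence interval -0.34 to 1.15), and *Slbp*, which binds the stem-loop of histone mRNA, at 0.21 (-0.15 to 0.56).

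Ordered by median log2 fold change, the roles ran from the MCM2-7 ring (1.31) and helicase activation (1.25) through Okazaki maturation (0.71), the clamp and its loaders (0.64), primase and polymerases (0.60), chromatin (0.41) and fork protection (0.23) to licensing (0.15), the DDK kinase (0.10) and RPA (0.06). Groups are small and no difference between them was tested. In 25 of the 46 genes, *Lig1* and *Chaf1a* among them, the annotation overlaps another gene, and reads from the shared stretch could be assigned to either.

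A further 40 genes of replication, or of linked steps such as DNA methylation, were listed by function. Of these, 8 rose (20%, beside 4.52% of all genes) and 0 fell (beside 3.39%). The log2 fold change was above 0 in 25 of them (62.5%, beside 49.3%) and below 0 in 15, with a median of 0.33. An unadjusted p under 0.05 was reached by 15 of them toward higher and 2 toward lower values (beside 12.3% and 10.7% of all genes). The 2 lower genes were *Mcm9* (-0.44, adjusted p = 0.139) and *Donson* (-0.34, adjusted p = 0.146), in which every TNFR2+ library was below every TNFR2- library. The largest rises were in *Uhrf1* (2.89, adjusted p = 4.98e-04), which brings DNA methylation to new strands, *Ticrr* (2.19, adjusted p = 0.00468), which brings CDC45 to origins, and *Pclaf* (2.10, adjusted p = 0.00197), a PCNA-binding factor. Without TNFR2+ replicate 2, 5 of the 40 rose, beside 339 of all 14010 genes tested. Origin recognition genes other than *Orc1* and *Orc6*, and the clamp loader genes *Rfc1* and *Rfc2*, did not pass.

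Mitotic genes had a higher median change than the replication genes, a difference that was not tested. The mean log2 value of the mitotic genes was lower in each library, but nearly equal in TNFR2+ replicate 3 (7.708 against 7.713). Of 18 such genes 11 rose (61.1%, beside 4.52% of all genes) and 0 fell, with a median log2 fold change of 2.29, and the unadjusted p was under 0.05 for 16 higher and 0 lower genes (beside 12.3% and 10.7%). Among 10 genes of cyclin E, the E2F family and nucleotide synthesis, 2 rose (20%, beside 4.52% of all genes) and 0 fell (beside 3.39%), with a median of 0.57. At an unadjusted p under 0.05, 4 were higher and 0 lower (beside 12.3% and 10.7%). The 2 that rose were the ribonucleotide reductase subunits *Rrm2* (1.68, adjusted p = 0.0307) and *Rrm1* (1.03, adjusted p = 0.00250), which make the deoxynucleotides that polymerases use. *Rrm2* passed in 3 of the 8 fits that left out a library. The mean log2 value of the mitotic list was 6.95 to 7.89 in TNFR2+ and 4.96 to 5.69 in TNFR2- libraries, and like that of the replication genes it was highest in TNFR2+ replicate 2 and lowest among TNFR2+ libraries in replicate 4.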

How the data were processed

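The authors extracted total RNA, made strand-specific libraries from small inputs with a SMARTer kit, trimmed the reads with Trim Galore, quantified transcripts with Salmon 1.3.0 on GRCm38 and normalized gene values with DESeq2 1.28 in R 4.0. The deposited values are a signal per gene, counts divided by size factors and not on a log scale. How transcripts were combined into genes is not given in the sources used here. The depth of each library was estimated from low values (up to 12) in 2806 genes with a single transcript over 1500 bases. These lay within 0.1 of whole reads in 88.11% to 96.5% of cases in TNFR2+ libraries. In TNFR2- libraries it was 69.7% to 88.07%, against 20% by chance for a scale fixed in advance. The scale of each library was chosen to maximize this percentage, so chance alone would give more than 20%. Reads of other genes could not be recovered, so no count model was used. Depth limits precision at low values, where 1 read is about 1 normalized count.

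Symbols, coordinates and principal transcripts came from the GENCODE M21 annotation of GRCm38 (20008 of 20172 identifiers matched). Genes with a mean of at least 10 were compared as log2(normalized count + 1) with limma 3.58.1 in R 4.3.3 (moderated variances with an intensity trend, two-sided), with Benjamini-Hochberg adjustment over all 13990 genes and a threshold of 0.05. Log2 fold changes are on this scale and understate changes of low genes. For single values, all 70 relabellings of the libraries were enumerated in a two-sided exact permutation test. Near-identical copies were transcripts aligned by blastn 2.17.0 with an identity of 95% or higher that covered 50% or more of the length. The fit was tested on simulated data.

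Alternatives were other pseudocounts and filters, no intensity trend, robust moderation, 2 other normalizations, a replicate block and each library left out in turn. Values in every library are given for genes past the threshold and for the largest change of a role in which none passed. The members, lists and rules were chosen with earlier results of these data known.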

Additional observations from a re-analysis of the deposited data

Results flagged for a closer look

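In 7 of 92 groups of 4 libraries (46 genes in TNFR2+ and TNFR2- Tregs), the highest or lowest library stood apart, in that its gap to the nearest library over the range of the group (Dixon's ratio) was above the 95% critical value. Chance alone flags about 4.6 of 92 groups. TNFR2+ replicate 3 was low for *Orc6* (ratio 0.891), *Mcm10* (0.905) and *Pola2* (0.882) and high for *Rfc4* (0.872). TNFR2- replicate 1 was high for *Mcm4* (0.901), TNFR2- replicate 2 was low for *Prim2* (0.832), and TNFR2- replicate 4 was low for *Pole* (0.881). *Mcm10* passed without TNFR2+ replicate 3, where its adjusted p from limma was 0.00417 and its log2 fold change 4.98.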

How the results depend on the processing

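Of the 10 replication genes that rose, 8 passed in each of the 9 alternatives that kept all libraries and 6 in each fit that left out a library. The number that rose was 8 without the intensity trend, where *Cdc6* and *Lig1* did not pass, 11 with no filter on low values, where *Pole* passed as well (adjusted p = 0.0452), and 10 at a minimum mean of 50, at which 6 genes were not tested. The number that fell was 0 in each of these fits. With each library left out in turn, 6 to 11 rose, the lowest without TNFR2+ replicate 2, and the median log2 fold change was 0.49 to 0.64. The genes called among all tested were 465 without the intensity trend and 636 to 1324 with a library left out, the lowest without TNFR2+ replicate 2. Of those, 283 and 339 to 777 were higher in TNFR2+ Tregs, in place of 633. Of the 40 further genes of replication and linked steps, 5 rose without the intensity trend and 5 to 9 with a library left out. The cause of these changes was not tested.

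Without a library, the log2 fold change crossed 0 for 7 genes that did not pass in any fit: *Orc1* (-0.24 to 0.39), *Cdc7* (-0.12 to 0.47), *Dbf4* (-0.14 to 0.040), *Rpa1* (-0.076 to 0.16), *Rpa2* (-0.19 to 0.14), *Clspn* (-0.0069 to 0.23) and *Wdhd1* (-0.085 to 0.35).

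Libraries with the same replicate number did not deviate together (correlations between -0.0386 and 5.42e-04), and 0 of the 4 TNFR2+ libraries correlated best with the TNFR2- library of its own number, so the numbers were not taken as pairs. With the number as a replicate block, 11 replication genes rose, *Pole* among them (adjusted p = 0.0340), and 1183 genes were called in all.

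Values under about 10 normalized counts rest on few reads, which limits *Mcm10*, *Gins1*, *Gins2*, *Rfc4*, *Pole2* and *Dscc1* in at least 1 TNFR2- library.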
